A study of Mus musculus with 10 samples.

Results

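This report describes genes associated with plasmacytoid dendritic cells (pDC) in RNA from sorted CD8+ type 1 conventional dendritic cells (cDC1) of the mouse spleen. The genes are Tcf4, Spib, Runx2, Siglech, Bst2, Ccr9, Ly6d, Klk1, Pacsin1 and Cox6a2. They were chosen by symbol, and 9 of the 10 were measured among the 10767 genes of the table. Cox6a2 was not analysed here. RNA-seq was performed on 10 libraries of untreated C57BL/6-background mice aged 8 to 13 weeks, matched for sex and age, with 5 libraries from Ppef2+/+ and 5 from Ppef2-/- mice. Ppef2-/- mice carry a knockout-first allele in every cell, with a gene-trap cassette containing lacZ and a floxed exon, made from JM8A3.N1 embryonic stem cells. Each of 5 sorts gave 1 library of each genotype, each from 3 pooled spleens. Cells were sorted as live MHCII+CD11c+CD11b-CD8+, a gate for which no exclusion of SiglecH, Bst2 or B220 is described.

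Plasmacytoid dendritic cells are the main producers of type I interferon after recognition of viral nucleic acids by Toll-like receptors. Their identity depends on the E protein encoded by Tcf4, which acts with Spib, Runx2 and Bcl11a and opposes the conventional dendritic cell programme. cDC1 instead depend on Irf8 and Batf3, carry Xcr1 and Clec9a, and specialise in cross-presentation. A subset of splenic CD8+ dendritic cells is known to share genes with pDC, and in a bulk sample fewer cells of a type and less RNA per cell cannot be told apart.

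Ppef2, the targeted gene, had 816 reads over the Ppef2+/+ and 18 over the Ppef2-/- libraries, and its levels ranged from 126 to 290 and from 0 to 4.73 normalized counts. Markers of cDC1 were high in both genotypes: Xcr1 averaged 3695 normalized counts in Ppef2+/+ and 3782 in Ppef2-/-, Clec9a 4323 and 4566, and Irf8 13561 and 13337. Batf3 averaged 413 and 418. In the deposited table the 2 libraries of every sort add up to the same value for each of 10721 genes, which means that the difference between sorts had been removed. The other 46 genes, Klk1 among them, have a value at the floor of 1, where this sum is broken. Whole reads were recovered for 9627 genes, all 9 pDC-associated genes included, and levels are given below as reads times the value of 1 read, so that differences between sorts are restored. These reads numbered between 1396295 and 2273524 in Ppef2+/+ and between 1508367 and 4409545 in Ppef2-/- libraries.

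Scaled to exon length, 8 of the 9 genes lay below every cDC1 marker examined. Bst2 stood highest, with a mean of 310 normalized counts per kilobase (kb) of exon over the 10 libraries, which placed it at the 93.3rd percentile of 10373 genes. Spib followed with 60.3 per kb, Siglech with 42.6, Runx2 with 33.2 and Ly6d with 28.6. Ccr9 had 23.5 per kb, Tcf4 14, Klk1 9.93 and Pacsin1 6.81. The median over all genes was 38 per kb, so that Siglech and Spib lay just above the middle of the transcriptome and Pacsin1 in its lower range, at the 11.4th percentile. In comparison, the 23 cDC1 markers had a median of 651 per kb (range 85.5 to 2916), and 16 of them exceeded Bst2. The order was clear for Bst2 over Spib, Siglech over Runx2 and Ccr9 over Tcf4, which held in 10 of 10 libraries each. Spib exceeded Siglech in 9 and Tcf4 exceeded Klk1 in 9 of 10 libraries. Runx2 exceeded Ly6d in 7, Klk1 exceeded Pacsin1 in 6 and Ly6d exceeded Ccr9 in 5 of 10 libraries, so these neighbours were not separated beyond their spread. Exon length is the union of all annotated isoforms and understates genes with many long alternative exons, such as Tcf4 with 27382 and Ccr9 with 10260 exon bases.

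**Figure D1:**
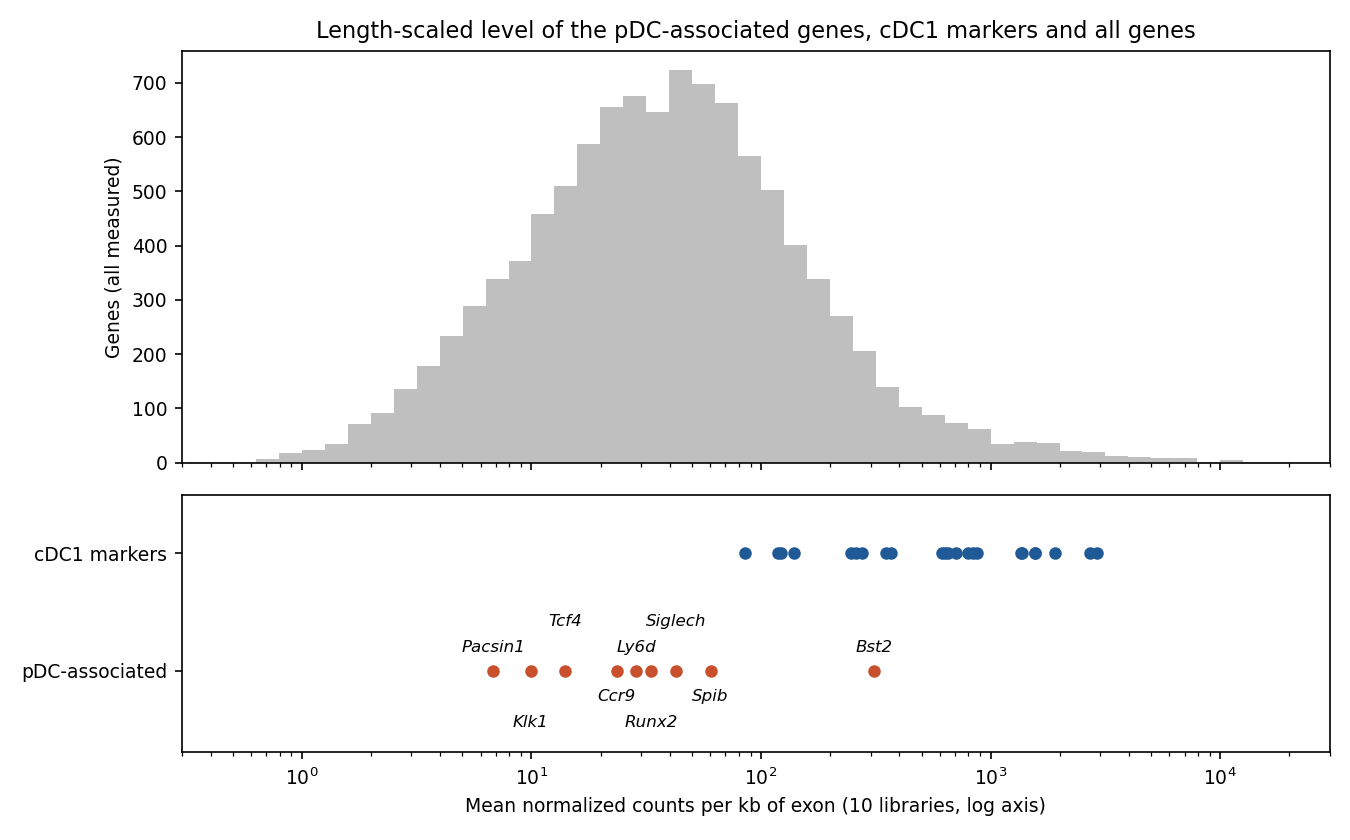
Mean level over 10 libraries in normalized counts per kb of exon (log axis) for all genes with an annotated length (grey bars, number of genes), for 23 cDC1 markers (blue) and for the 9 pDC-associated genes (red). Bst2 at 310 per kb lies among the cDC1 markers, and the other 8 genes lie at 60.3 or below, under the lowest cDC1 marker at 85.5.

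Tcf4, the E protein that specifies pDC, was lower in Ppef2-/- than in Ppef2+/+ cDC1 in 5 of 5 sorts. The gene spans bases 69343356 to 69689079 of chromosome 18 (GRCm38, plus strand). From sort 1 to sort 5, Ppef2+/+ cDC1 had 376, 443, 427, 433 and 437 normalized counts. Ppef2-/- cDC1 had 336, 370, 344, 287 and 374. The highest Ppef2-/- library thus stayed below the lowest Ppef2+/+ library, if only by 374 against 376, and the genotypes did not overlap. Of 9627 genes, 0.301% were likewise lower in Ppef2-/- without overlap and 0.239% were higher. The mean was 423 ± 26.8 in Ppef2+/+ and 342 ± 34.7 in Ppef2-/- (SD, n = 5), 1.24-fold lower in Ppef2-/-. The within-sort log2 difference ranged from -0.16 in sort 1 to -0.59 in sort 4. Since Tcf4 was chosen with this contrast known, its values are a description. The log2 fold change was -0.31 with a standard error of 0.05 (adjusted p = 0.018 from limma without a term for the sort). Adding the sort to the model as a block gave an adjusted p of 0.711 from limma.

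Spib, an Ets family factor that acts downstream in pDC and B cell development, was not lower in Ppef2-/- in every sort, unlike Tcf4. Both had their largest within-sort drop in sort 4, with a log2 ratio of -0.61 for Spib and -0.59 for Tcf4. The Spib gene is at chromosome 7, 44525993 to 44532071, on the minus strand. Its Ppef2+/+ libraries had 156, 132, 206, 181 and 178 normalized counts in sorts 1 to 5. Its Ppef2-/- libraries had 156, 191, 182, 118 and 229. The genotypes overlapped over most of their range, sort 1 showed no difference, sorts 2 and 5 were higher and sorts 3 and 4 lower in Ppef2-/-. The mean was 171 ± 27.8 in Ppef2+/+ and 175 ± 41.1 in Ppef2-/- (SD, n = 5), with a log2 fold change of 0.04 and a standard error of 0.11 (adjusted p = 0.90 from limma).

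Runx2, a runt-domain factor required for exit of pDC from the bone marrow, is encoded at chromosome 17, 44495987 to 44814797, on the minus strand. Its level was 261, 309, 307, 329 and 324 normalized counts in Ppef2+/+ from sort 1 to 5. In Ppef2-/- it was 246, 278, 319, 234 and 327. Only sort 4 showed a large difference, a log2 ratio of -0.49, and the other 4 sorts lay between -0.15 and 0.06. The mean was 306 ± 26.6 and 281 ± 42.1 (SD, n = 5), a log2 fold change of -0.12 with a standard error of 0.06 (adjusted p = 0.32 from limma). In sort 4 Tcf4, Spib and Runx2 all had their lowest value of 10 libraries in the Ppef2-/- library. Of the 50-base windows of Runx2 transcripts, 5.66% also occur in other genes, mostly in its antisense partner Runx2os1, which cannot be told apart in a library without strand.

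Siglech encodes the sialic acid-binding lectin by which mouse pDC are commonly identified. Its mRNA was lower in Ppef2-/- in 5 of 5 sorts, and the genotypes overlapped. Siglech is found at chromosome 7, 55768178 to 55778925, on the plus strand. By sort, Ppef2+/+ cDC1 had 159, 165, 129, 145 and 186 normalized counts. Ppef2-/- cDC1 had 126, 157, 124, 119 and 131. The difference was small in sorts 2 and 3 (log2 ratios of -0.07 and -0.06) and largest in sort 5 (-0.50). The mean was 157 ± 21.4 in Ppef2+/+ and 131 ± 14.7 in Ppef2-/- (SD, n = 5), 1.19-fold lower. The log2 fold change was -0.25 with a standard error of 0.07, and it did not pass the threshold (adjusted p = 0.083 from limma without and 0.995 with the sort as a block). Of all 9627 genes, 2.98% were lower in Ppef2-/- in 5 of 5 sorts and 3.25% were higher in 5 of 5. Among the 9 genes only Tcf4 and Siglech had 1 direction in all sorts, both of which were chosen with these values known.

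Bst2, the interferon-inducible membrane protein tetherin (PDCA-1), was the most abundant per length and showed no common direction. Bst2 covers 71534255 to 71537456 of chromosome 8 on the minus strand. Its Ppef2+/+ libraries had 256, 315, 234, 236 and 379 normalized counts in sorts 1 to 5. Its Ppef2-/- libraries had 266, 256, 287, 296 and 270. The Ppef2-/- values stayed within a narrow range, while those of Ppef2+/+ spread on both sides of it. The mean was 284 ± 62.5 in Ppef2+/+ and 275 ± 16 in Ppef2-/- (SD, n = 5), a log2 fold change of -0.05 with a standard error of 0.10 (adjusted p = 0.85 from limma).

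Ccr9, the chemokine receptor for the gut and thymus ligand Ccl25, is carried by pDC. Ccr9 covers 123678439 to 123784330 of chromosome 9 on the plus strand. Its level by sort was 207, 274, 222, 209 and 282 normalized counts in Ppef2+/+. In Ppef2-/- it was 235, 256, 222, 228 and 275. Sorts 2 and 5 were high in both genotypes, and the difference within a sort was at most 0.18 on the log2 scale. The mean was 239 ± 36.3 and 243 ± 22 (SD, n = 5), with a log2 fold change of 0.03 and a standard error of 0.04 (adjusted p = 0.80 from limma). A share of 20.1% of the 50-base windows of Ccr9 transcripts also occur in other annotated genes, mostly in AC165425.1, so that part of its reads could have been assigned to either.

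E proteins such as Tcf4 bind the E-box CANNTG, and interferon regulatory factors bind elements with repeats of GAAA. For this reason the sequences just before the start sites of these 3 surface proteins are shown. They are RefSeq promoters of build GRCm38.p6, kept to bases outside the exons that GENCODE annotates for the gene, on the coding strand, with CAGGTG (or CACCTG on the other strand) and pairs of GAAA spaced by 2 bases in capitals. Siglech is chr7:55767934-55768177 on the plus strand, Ccr9 is chr9:123766961-123767168 on the plus strand, before a RefSeq start that lies inside the longer GENCODE gene, and Bst2 is chr8:71537473-71537722 on the minus strand.
Siglech: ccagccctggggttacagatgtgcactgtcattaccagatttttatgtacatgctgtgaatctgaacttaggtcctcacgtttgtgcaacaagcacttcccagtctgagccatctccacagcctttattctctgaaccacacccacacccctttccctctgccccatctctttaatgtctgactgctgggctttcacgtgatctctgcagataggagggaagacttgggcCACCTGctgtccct
Ccr9: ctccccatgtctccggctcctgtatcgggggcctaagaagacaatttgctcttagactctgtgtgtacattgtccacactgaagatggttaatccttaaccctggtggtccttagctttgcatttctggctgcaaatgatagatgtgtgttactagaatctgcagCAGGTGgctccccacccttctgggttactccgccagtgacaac
Bst2: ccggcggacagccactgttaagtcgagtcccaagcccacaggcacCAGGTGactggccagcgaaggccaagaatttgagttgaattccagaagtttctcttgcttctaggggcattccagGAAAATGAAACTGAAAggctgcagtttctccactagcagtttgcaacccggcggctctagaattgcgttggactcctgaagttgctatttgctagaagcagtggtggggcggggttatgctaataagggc
The CAGGTG motif lay 20 bases before the RefSeq start in Siglech, 85 in Ccr9 and 205 in Bst2. Bst2 held 2 overlapping GAAA pairs that begin 130 and 124 bases before the start, written as 1 run of capitals. Promoters were at hand for 7 of the genes, and 4 of them (Siglech, Bst2, Ccr9 and Klk1) held CAGGTG on either strand within 250 bases, as did 17.2% of all 32851 promoters. CANNTG, which includes CAGGTG, was found in 6 of the 7 and in 66.2% of all promoters. A GAAA pair with this spacing, on either strand, was found in Bst2 alone of the 7 and in 2.98% of all promoters. A match is a stretch of letters and no measurement of binding.

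Ly6d, a GPI-anchored protein of lymphoid progenitors that marks a pDC-committed and B cell-committed path, varied more than any of the 6 genes above. Ly6d covers 74762056 to 74763620 of chromosome 15 on the minus strand. The Ppef2+/+ libraries had 17.8, 42.3, 4.51, 8.32 and 56.8 normalized counts in sorts 1 to 5, from 13, 31, 3, 9 and 57 reads. The Ppef2-/- libraries had 11.1, 24.2, 21.5, 7.4 and 19.2, from 24, 41, 23, 7 and 14 reads. Ly6d was highest in the Ppef2+/+ libraries of sorts 5 and 2 and lower in Ppef2-/- in 4 of 5 sorts, with the opposite direction in sort 3. The mean was 25.9 ± 22.7 in Ppef2+/+ and 16.7 ± 7.13 in Ppef2-/- (SD, n = 5). The log2 fold change of the deposited values was -0.82 with a standard error of 0.49 (adjusted p = 0.42 from limma), and it was -0.21 with a standard error of 0.37 on the restored values with the sort as a block. Without the Ppef2-/- library of sort 5 it was -0.32 on the deposited values.

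Klk1, a tissue kallikrein found in pDC signatures, had few reads. The gene lies at chromosome 7, 44225360 to 44229618, on the plus strand. The Ppef2+/+ libraries had 4, 9, 7, 1 and 37 reads in sorts 1 to 5, or 5.48, 12.3, 10.5, 0.924 and 36.8 normalized counts. The Ppef2-/- libraries had 21, 17, 3, 3 and 9 reads, or 9.75, 10, 2.81, 3.17 and 12.3 normalized counts. The Ppef2+/+ library of sort 5 lay above all others, and the genotypes overlapped. Klk1 passed the authors' filter, a mean of at least 10 in either genotype, through its Ppef2+/+ libraries. The mean was 13.2 ± 13.9 and 7.62 ± 4.34 (SD, n = 5), and the log2 fold change was -0.81 with a standard error of 0.47 (adjusted p = 0.41 from limma). In the deposited table its Ppef2-/- library of sort 5 is at the floor of 1, while its 9 reads give 12.3. On the restored values with the sort as a block the log2 fold change was -0.30 with a standard error of 0.49, and without that library it was -0.32 on the deposited values. Without sort 5 it was -0.12. Of its 50-base windows, 24% also occur in related kallikrein genes of the Klk1b group, none of which is a row of the table.

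Pacsin1, a membrane-bending adaptor of endocytosis that is selective for neurons and pDC, is encoded at chromosome 17, 27655509 to 27711482, on the plus strand. The Ppef2+/+ libraries had 60.2, 51.8, 16.5, 49.9 and 52.8 normalized counts in sorts 1 to 5. The Ppef2-/- libraries had 29.7, 49.6, 35.6, 47.6 and 50.7. Sorts 2, 4 and 5 were nearly equal between genotypes, while sorts 1 and 3 differed in opposite directions, with 0.493 and 2.15 times the Ppef2+/+ level in Ppef2-/-. The mean was 46.3 ± 17.1 and 42.6 ± 9.41 (SD, n = 5), a log2 fold change of -0.12 with a standard error of 0.16 (adjusted p = 0.75 from limma).

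**Figure D2:**
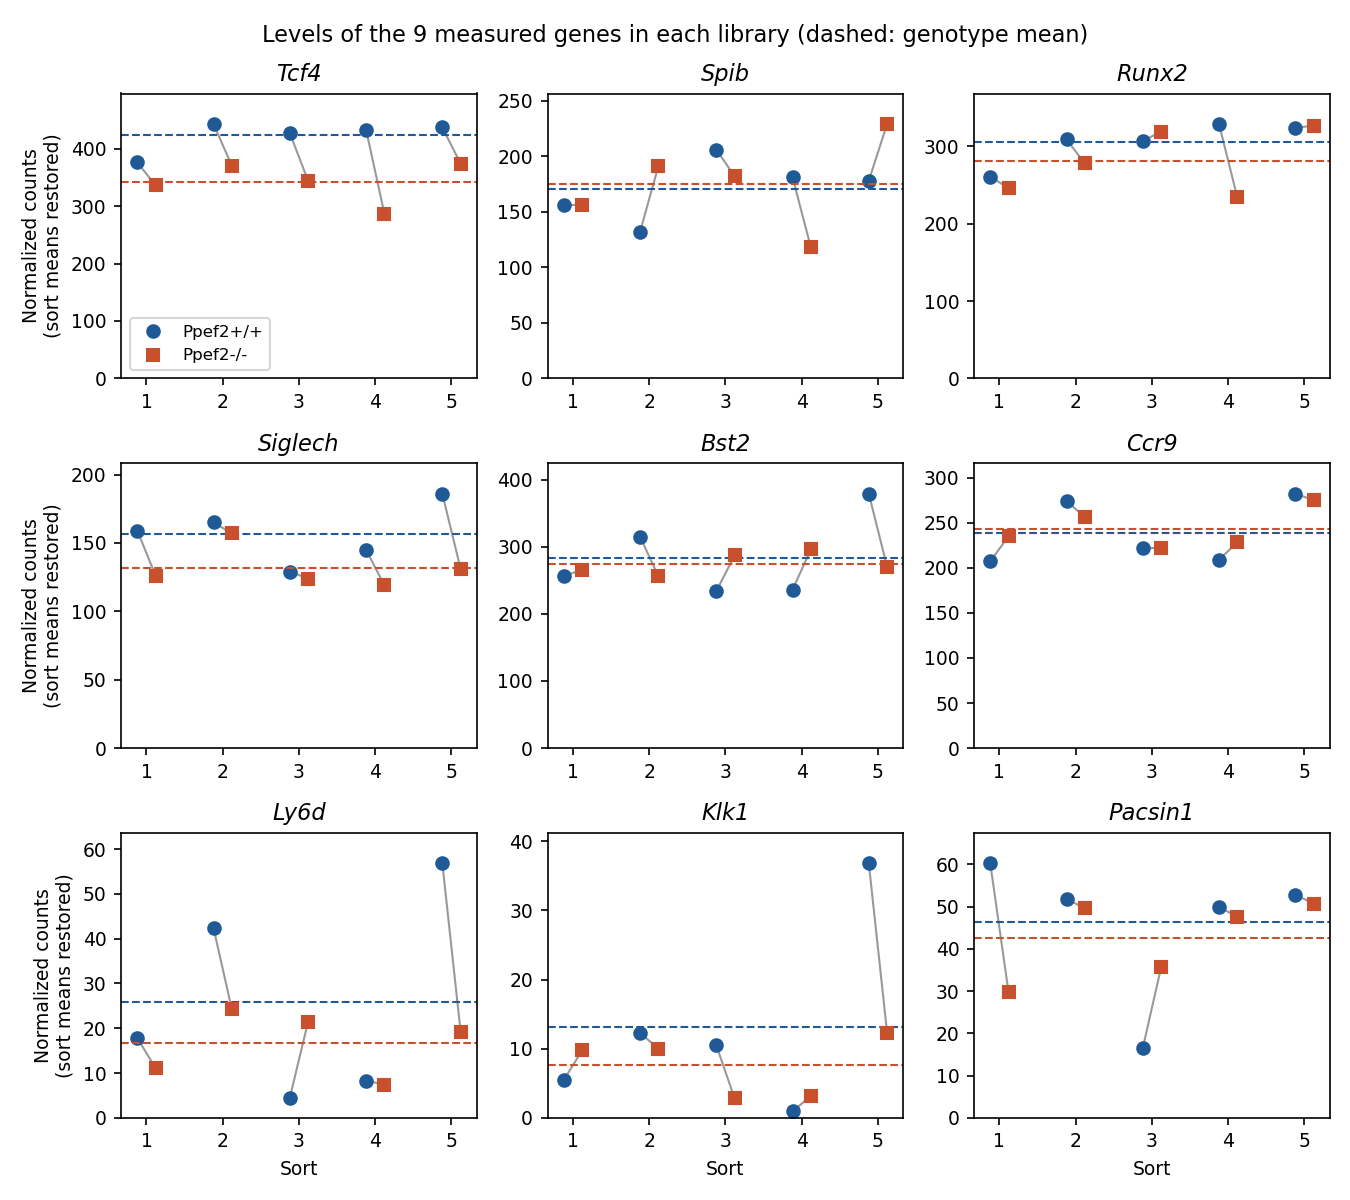
Level of each of the 9 genes in normalized counts with sort means restored (vertical axes from 0) in each sort for Ppef2+/+ (blue circles) and Ppef2-/- (red squares). Grey lines join the libraries of a sort, and dashed lines give the genotype means (n = 5). For Tcf4 every red square lies below every blue circle, at 287 to 374 against 376 to 443, and for the other 8 genes the genotypes overlap.

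Of the 9 genes, 1 (Tcf4) was called lower and 0 were called higher in Ppef2-/- by limma at an adjusted p under 0.05, and of all 10767 genes 0.957% were called in either direction, 0.483% as lower and 0.474% as higher. With the sort as a block, 0 of the 9 genes were called and 2 (Tcf4 and Siglech) had an unadjusted p under 0.05, while 0.00929% of all genes were called (Ppef2 alone) and 4.29% had an unadjusted p under 0.05 (1.99% as lower). In the deposited values the library pair of a sort is mirrored about the same mean, so that the fit without a block counts more independent values than the table holds. The median log2 fold change was -0.12 over the 9 genes and 0.00 over all genes. By sort, 3, 1, 4, 3 and 2 of the 9 genes were higher in Ppef2-/- in sorts 1 to 5. Of all genes 49%, 49.9%, 51.3%, 50.4% and 51.3% were higher in Ppef2-/- in these sorts. The median log2 ratio of the 9 genes lay between -0.23 in sort 5 and -0.00 in sort 3.

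**Figure D3:**
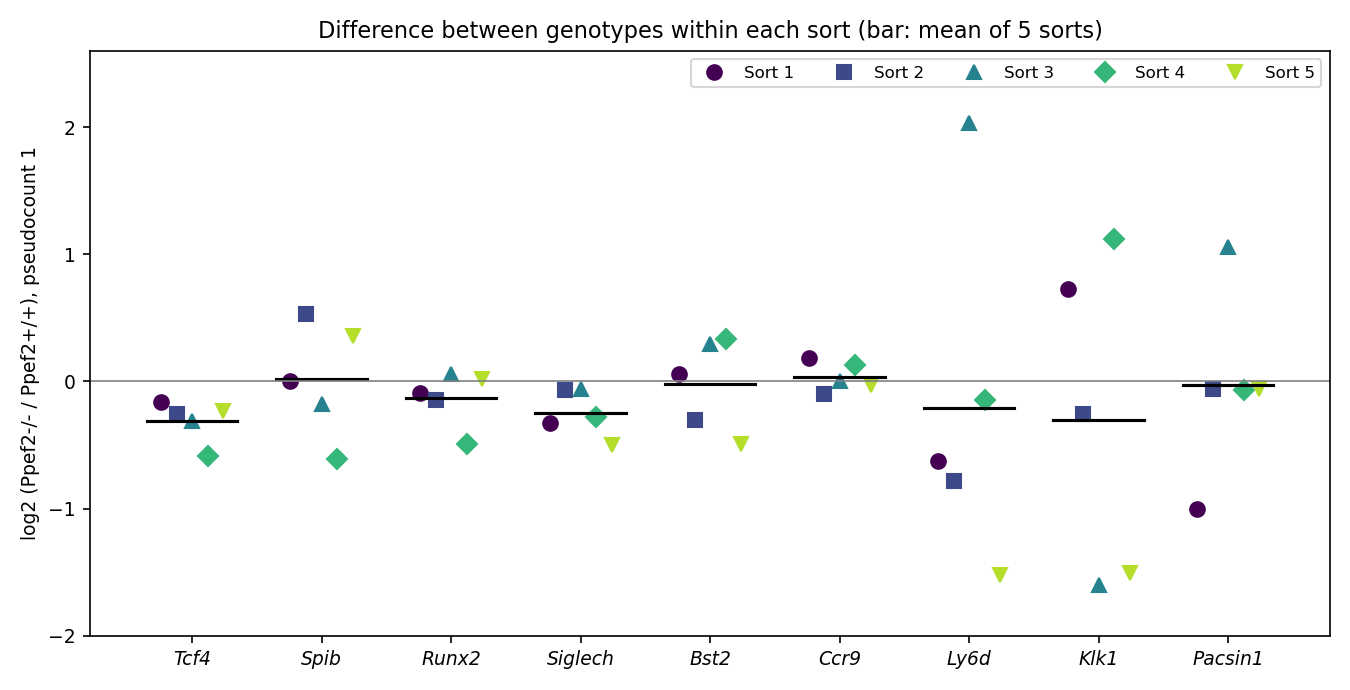
Log2 ratio of Ppef2-/- to Ppef2+/+ within each of 5 sorts (symbols) for the 9 genes, computed with a pseudocount of 1, and the mean of the 5 sorts (black bar). All 5 symbols of Tcf4 (-0.16 to -0.59) and Siglech (-0.06 to -0.50) lie below 0, and those of Spib, Runx2, Bst2, Ccr9, Ly6d, Klk1 and Pacsin1 lie on both sides.

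The genes did not form a single group across libraries. Among the 36 pairs of the 9 genes, Pearson's r of log2 levels over the 10 libraries ranged from -0.34 (Bst2 with Spib) to 0.79 (Ccr9 with Klk1), with a median of 0.34. The correlations are descriptions over libraries that share a sort or a genotype. Of the 3 transcription factors, Runx2 had an r of 0.74 with Tcf4 and of 0.64 with Spib, while Tcf4 and Spib had 0.38. Ly6d had an r of 0.74 with Siglech, 0.75 with Bst2 and 0.70 with Ccr9. Siglech had an r of 0.68 with Tcf4, 0.47 with Bst2, 0.44 with Ccr9 and 0.00 with Spib. The r with Tcf4 includes the lower mean of both genes in Ppef2-/-. With genotype means removed, Siglech had an r of 0.39 with Tcf4, 0.56 with Bst2, 0.66 with Ccr9 and 0.03 with Spib. The Ppef2+/+ library of sort 5 was the highest of all 10 for 5 of the 9 genes (Siglech, Bst2, Ccr9, Ly6d and Klk1), and it was the highest for 8.56% of all genes. The Ppef2-/- library of sort 4 was the lowest for 4 of the 9 genes (Tcf4, Siglech, Spib and Runx2), and it was the lowest for 11.2% of all genes.

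Spread between libraries exceeded counting error for each of the 9 genes. The variance of the restored level over the 10 libraries was 12.2 times the variance expected from read counts for Ly6d and 9.4 times for Klk1. It was between 6.02 and 6.61 times for Tcf4, Bst2 and Spib, and between 3.14 and 4.12 times for Siglech, Ccr9, Pacsin1 and Runx2. The median over 8876 genes with at least 20 reads per library on average was 2.42 times. Klk1 ranged from 0.924 to 36.8 normalized counts, from 1 and 37 reads, and Ly6d from 4.51 to 56.8, from 3 and 57 reads. Among the genes with more reads, the highest library exceeded the lowest from 1.36-fold for Ccr9 to 3.64-fold for Pacsin1.

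The genes whose profile over the 10 libraries was most like that of Siglech were Atp1b1 (r = 0.94), Cd8b1 (r = 0.92) and Ly6c2 (r = 0.90) out of 8875 genes, whose median r was 0.03. Atp1b1, a subunit of the sodium-potassium pump, and Ly6c2, the Ly6C antigen, both belong to the list of other pDC genes, and Cd8b1 encodes the CD8 beta chain, which was listed as a T cell marker. Rassf7, Rab1b, Sphk2, Pofut2, B3gat2 and Ppp4r1l-ps were also among the first 10, with r between 0.84 and 0.88. Only 0.327% of all genes had an r over 0.8. Of the chosen genes, Ly6d had the highest r (0.74, rank 76 of the 8875 genes), and Tcf4 had 0.68 (rank 164). Pacsin1 had 0.52, Klk1 0.52, Bst2 0.47, Ccr9 0.44 and Runx2 0.33.

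**Figure D4:**
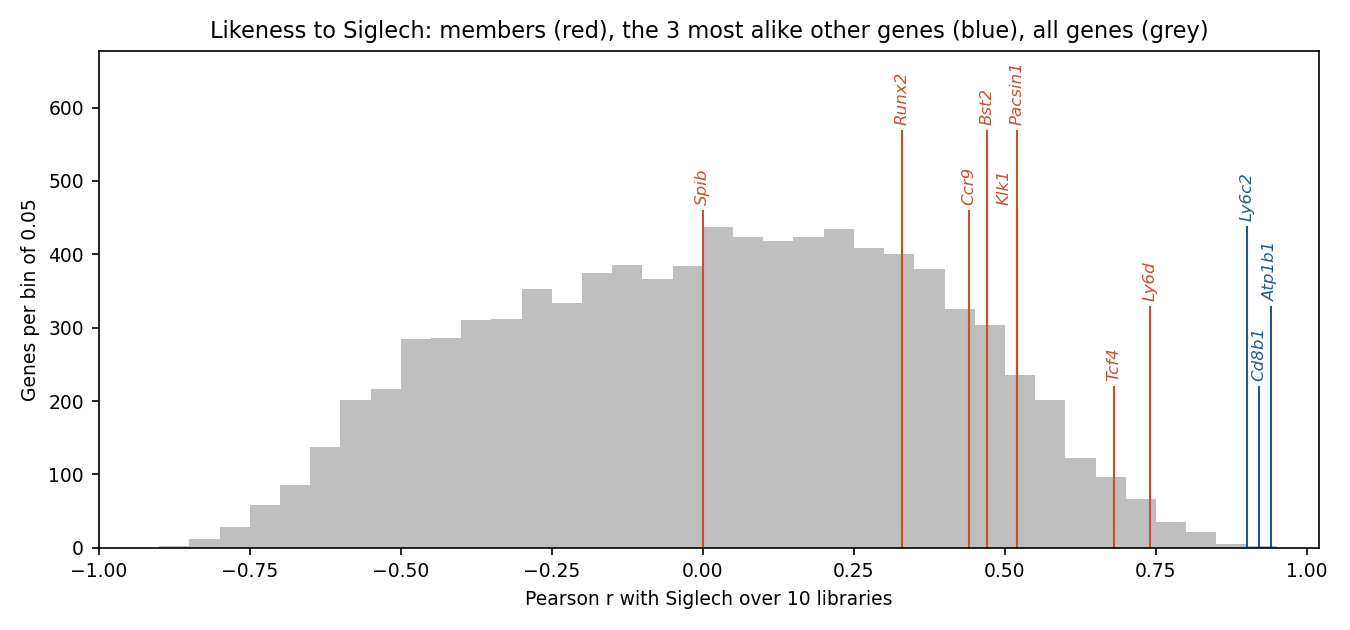
Pearson's r with Siglech over 10 libraries on the log2 scale, shown as the number of genes per bin of 0.05 for all 8875 genes (grey), with the other 8 pDC-associated genes (red) and the 3 most alike genes (blue) marked by lines whose height has no meaning. Spib lies at 0.00 and Ly6d at 0.74, and Ly6c2, Cd8b1 and Atp1b1 lie between 0.90 and 0.94.

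By sort, Atp1b1 had 37, 49.1, 19.5, 29.6 and 49.8 normalized counts in Ppef2+/+ and 21.8, 39.6, 26.2, 16.9 and 24.6 in Ppef2-/-. Ly6c2 had 49.3, 90, 36.1, 55.5 and 106 in Ppef2+/+ and 51.5, 76.2, 40.3, 32.8 and 47.9 in Ppef2-/-. Cd8b1 had 63, 77.7, 39.1, 43.4 and 92.6 in Ppef2+/+ and 42.3, 54.9, 37.5, 25.4 and 52 in Ppef2-/-. Each of the 3 was highest in the Ppef2+/+ libraries of sorts 5 and 2 and lowest in the Ppef2-/- library of sort 4, as Siglech was. Their range was wider than that of Siglech, since the highest library exceeded the lowest 2.94-fold, 3.22-fold and 3.65-fold for Atp1b1, Ly6c2 and Cd8b1 and 1.56-fold for Siglech. Over the 5 within-sort differences, which are part of the same values that picked these genes, r with Siglech was 0.86 for Atp1b1, 0.80 for Cd8b1 and 0.72 for Ly6c2. For the chosen genes it was 0.68 for Ly6d, 0.53 for Pacsin1, 0.42 for Bst2, 0.01 for Runx2, -0.04 for Spib, -0.06 for Klk1 and -0.32 for Ccr9. The median over the 7 chosen genes with enough reads was 0.01, as it was over all genes. Tcf4, although lower in every sort, had an r of -0.13 over the 5 differences, since its difference was largest in sort 4 and that of Siglech in sort 5. Over the 5 sort means, the average log2 level of both libraries of a sort, r with Siglech was higher for most chosen genes. It was 0.95 for Ly6d, 0.88 for Ccr9, 0.78 for Klk1, 0.77 for Bst2, 0.72 for Pacsin1 and 0.67 for Tcf4. For Runx2 and Spib it was 0.18 and 0.08. The median over all genes was not computed for sort means. Without sort 5 the r over 8 libraries was 0.94 for Atp1b1, 0.92 for Cd8b1, 0.84 for Ly6c2 and 0.64 for Ly6d, but -0.02 for Bst2 and 0.28 for Klk1.

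**Figure D5:**
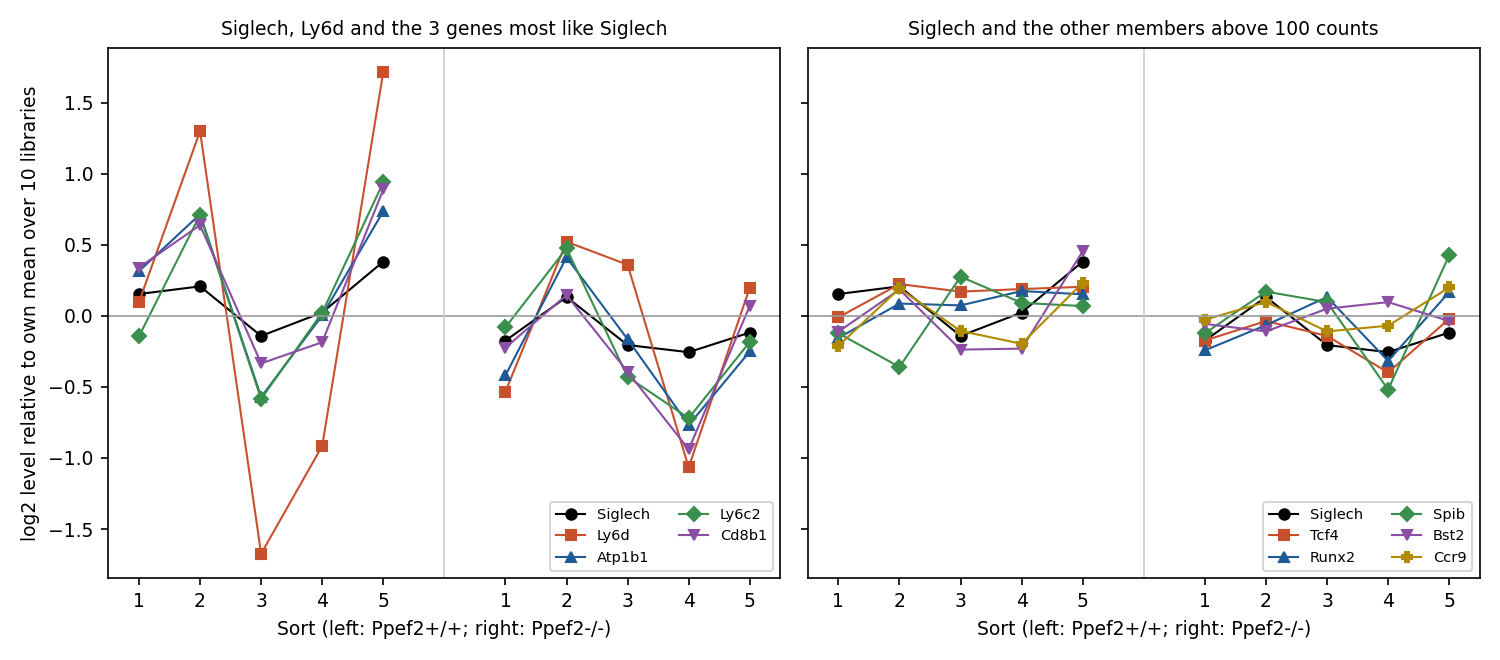
Log2 level in each library relative to the gene's own mean over 10 libraries, for the Ppef2+/+ libraries (left of the vertical line in each panel) and the Ppef2-/- libraries (right) of sorts 1 to 5, with lines only to guide the eye. The left panel shows Siglech with Ly6d, Atp1b1, Ly6c2 and Cd8b1, all highest in Ppef2+/+ sort 5, and the right panel shows Siglech with the 5 chosen genes above 100 normalized counts, whose r with Siglech runs from 0.00 (Spib) to 0.68 (Tcf4).

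Ratios of reads within a library do not depend on scaling. Per Siglech read, the libraries had between 2.35 and 3.3 Tcf4 reads, a 1.41-fold range, and between 1.61 and 2.48 Bst2 reads, a 1.54-fold range. The ratio of Ccr9 to Siglech lay between 1.3 and 2.09 and that of Spib between 0.802 and 1.74. The ratio of Ly6d to Siglech was highest in the Ppef2+/+ library of sort 5, at 0.305 (95% confidence interval 0.222 to 0.412 from the exact Clopper-Pearson method), and lowest in that of sort 3, at 0.0349 (0.00706 to 0.105). The ratio of Klk1 to Siglech was highest and lowest in the Ppef2+/+ libraries of sorts 5 and 4, at 0.198 (0.135 to 0.283) and 0.00637 (0.00016 to 0.036). These are the extremes of 10 libraries, and the intervals cover counting error only.

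Of 40 other pDC genes listed, 31 were tested, and 0 were called in either direction by limma without or with the sort as a block. With the block, 3 of the 31 (Ly6c2, Atp1b1 and Plac8) had an unadjusted p under 0.05 from limma, beside 4.29% of all genes. The log2 fold changes of the 31 genes ranged from -0.60 to 0.30 with a median of -0.02, beside 0.00 over all genes. Irf7, the interferon regulatory factor that drives type I interferon in pDC, averaged 618 normalized counts in Ppef2+/+ and 599 in Ppef2-/-. Bcl11a, a zinc finger factor upstream of Tcf4, averaged 821 and 772. Tlr9, the DNA sensor, averaged 445 and 420, and Tlr7, the RNA sensor, 42.8 and 52.8. Plac8 had 2120 and 1912 with a log2 fold change of -0.15, which did not pass (limma, adjusted p = 0.11). Of the 24 of these genes with 20 reads or more per library on average, 9 had an r over 0.5 with Siglech (37.5%, beside 8.87% of all genes). The highest after Atp1b1 and Ly6c2 were Cd300c (0.78), Irf7 (0.71), Lair1 (0.70) and Tlr9 (0.62), while Nrp1, Zeb2 and Tlr7 had -0.30, -0.40 and -0.45.

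Markers of other cells that a CD8+ gate could hold were measured in both genotypes on both sides of the median of all genes, 170 normalized counts. Of the B cell list 5 of 19 genes were measured, and their sum ranged from 322 to 392 normalized counts in Ppef2+/+ and from 333 to 379 in Ppef2-/-. Ms4a1, the CD20 antigen, averaged 142 and 146. Cd79a, Cd3e, Cd3d and Dntt were not analysed here. Of the T cell list 3 of 14 genes (Cd5, Cd8b1 and Tcf7) were measured, with sums from 157 to 190 and from 113 to 205. Cd8b1 was the only one of them called, with 63.2 ± 22.6 in Ppef2+/+ and 42.4 ± 11.9 in Ppef2-/- (SD, n = 5). Its log2 fold change was -0.57 with a standard error of 0.12 (adjusted p = 0.048 from limma without a block and 0.995 with the sort as a block). Cd8b1 was lower in Ppef2-/- in 5 of 5 sorts, as Tcf4, Siglech, Klrk1 and the cDC1 marker Naaa were. Klrk1 had a log2 ratio of only -0.00 in sort 2. Of 9627 genes, 2.98% were lower in 5 of 5 sorts. Sirpa and Itgam, markers of type 2 conventional dendritic cells, averaged 345 and 31.4 normalized counts in Ppef2+/+ and 345 and 30.5 in Ppef2-/-. Lyz2 and C1qa, markers of monocytes and macrophages, averaged 810 and 26.1 in Ppef2+/+ and 780 and 29.9 in Ppef2-/-. S100a9, the only neutrophil gene measured, averaged 13.7 and 7.47 (adjusted p = 0.29 from limma), and Klrk1, the only gene measured of the natural killer cell list, 555 and 494 (adjusted p = 0.072 from limma). The median r with Siglech was 0.47 for 7 chosen genes and 0.38 for 24 other pDC genes. It was 0.29 for the B cell list, -0.03 for 13 monocyte and macrophage genes and 0.06 for 9 genes of type 2 conventional dendritic cells. It was 0.45 for the 5 cDC1 markers whose reads could be recovered. For 3 T cell, 4 erythroid and 16 interferon-stimulated genes it was 0.32, 0.18 and 0.15. Over the 5 within-sort differences the median r was 0.01 for the chosen genes and 0.12 for the other pDC genes. There it was 0.75 for the 3 T cell genes, which include Cd8b1, named above for its likeness to Siglech in the same libraries. It was 0.66 for the erythroid and 0.57 for the cDC1 genes. Interferon-stimulated genes had 0.43, B cell genes 0.31, monocyte and macrophage genes -0.13 and type 2 conventional dendritic cell genes -0.23. The part of carried-over pDC or of other cells in the levels above was not tested.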

How the data were processed

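RNA-seq of 10 libraries of sorted CD8+ cDC1 was analysed, 5 per genotype, paired by sort. The 2 libraries taken as a sort are those whose deposited values add up to the same value for each gene off the floor. The deposited values were normalized counts (a signal, not whole reads) per gene. The submitters' processing notes name TopHat2 2.0.3, Partek 6.6, R 3.0.2, DESeq2 and mm10, while the study's methods name HISAT as aligner, so the aligner is unsettled. Reads were 50 bases, single-end and without strand. The authors set values below 1 to 1 and removed genes with a mean under 10 in both genotypes. The deposited values also had the mean of each sort removed. This is how normalization could affect the measurements: genotype means and within-sort differences are kept except in the 46 genes with a value at the floor (Klk1 among them), and the spread between libraries is understated.

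The value of 1 read in each library was found from 557 low genes, for which the chosen set gave 1 solution in 100.0% of genes and the next set in 1.8%. Whole reads followed for 9627 genes, and 1140 genes with values of 1000 or more were not resolved. Recovery and fits were tested on simulated data. Genotypes were compared with limma 3.58.1 (R 4.3.3, moderated with a trend) on log2(deposited value + 1), with Benjamini-Hochberg adjustment over 10767 genes and a threshold of 0.05. Fold changes are on that scale, where the pseudocount shrinks the change of low genes and the removed sort means can enlarge it. The sort as a block was the other fit. In the deposited values, deviations of the 2 libraries of a sort from their genotype means had r between -0.94 and -0.93 over 8876 genes. In the restored values this r was between 0.04 and 0.38. There, the highest r with a library of another sort was between 0.12 and 0.39. It exceeded the same-sort r in sorts 2 to 5. Alternatives were the pseudocount, a filter on low values, scaling, the trend, restored values, voom on whole reads and leaving out libraries or sorts. Chosen genes, lists and tests were set with earlier results of these data known. Named genes are all chosen genes, other pDC genes that passed a test, defining markers and the 10 genes most like Siglech by r. Some genes that the rule names are not reported here. Other genes named were picked after their values were seen. Genes of the lists are textbook markers, and positions, exon lengths and 50-base windows are from GENCODE M21 (GRCm38). Depth was 1396295 to 4409545 reads in resolved genes, and intervals cover counting error only. Python 3.11.15 and scipy 1.17.1 were used for the rest.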

Additional observations from a re-analysis of the deposited data

Results flagged for a closer look

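For each of the 9 genes, Dixon's ratio was computed for the extreme libraries within a genotype (18 groups). It passed the critical value in 2 groups, where chance would give about 0.9. The Ppef2+/+ library of sort 1 had a Tcf4 level of 376 normalized counts, below 427 to 443 in the other Ppef2+/+ libraries. For Pacsin1 the Ppef2+/+ library of sort 3 stood apart at 16.5 normalized counts, from 11 reads, below 49.9 to 60.2 in the others.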

How the results depend on the processing

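Without a block, 103 of 10767 genes were called. The count was 193 without a trend in the moderation, 1 with the sort as a replicate block, 1 with sort means restored, 2 with sort means restored and the replicate block and 2 with voom on whole reads and the replicate block. It was between 1 and 23 without a single library and between 0 and 192 without both libraries of a sort, with 1767 genes at an unadjusted p under 0.05 where it was 0 (sort 2). Of the 9 chosen genes, 1 (Tcf4) was called, and 0 with the replicate block, with restored values or with voom on whole reads, where the adjusted p of Tcf4 from limma was between 0.37 and 1. Leaving out libraries or sorts gave between 0 and 1. Tcf4 had an adjusted p from limma of 0.06 without either library of sort 2, 0.058 and 0.056 without the Ppef2+/+ and Ppef2-/- libraries of sort 3 and 0.05, at the threshold, without the Ppef2-/- library of sort 4. It had 0.091 without sort 2 and 0.07 without sort 3. Its log2 fold change stayed between -0.35 and -0.24 in each of these fits.

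Among the other pDC genes, 0 were called, and between 0 and 1 (Plac8, without sort 4) when libraries or sorts were left out. Of 82 markers of other cell types and interferon-stimulated genes, 2 (Cd8b1 among them) were called, 0 with the replicate block, restored values or voom, 1 without a trend and between 0 and 4 when libraries or sorts were left out. The log2 fold changes of the 9 genes moved by less than the SD of their within-sort differences in 78 of 78 other fits and in 135 of 135 fits that left out libraries, but this SD was wide for low genes (1.35 for Ly6d). When libraries or sorts were left out, Ly6d ranged from -1.32 to -0.14 and Klk1 from -1.14 to -0.12. The sign changed in some of these fits for Bst2 (-0.14 to 0.08), Ccr9 (-0.01 to 0.06), Spib (-0.08 to 0.18) and Pacsin1 (-0.30 to 0.10), none of which was called. The other settings for r with Siglech were chosen after seeing the data. Count models of edgeR and DESeq2 on whole reads were not run. Depth limits Klk1 and Ly6d, which had between 1 and 57 reads in a library.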
